A study of Mus musculus with 12 samples.

Results

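The comparison follows mouse primary cardiac fibroblasts that had been exposed to 6 µM MCB-613-10-1, from 4 h to 24 h of exposure. All 6 treated libraries of the series were used, 3 harvested at 4 h and 3 at 24 h, and they are 6 of the 12 libraries in all. The cells carried the C57BL/6 background, were kept in DMEM with 10% fetal bovine serum, and received a single compound dose, whereas the 6 matched libraries received the ethanol vehicle alone for 4 h or 24 h (3 each). MCB-613-10-1 is described in the series as a derivative of MCB-613, a small molecule known as a stimulator of steroid receptor coactivators, and the study asked which circuits in cardiac fibroblasts accompany its anti-fibrotic action. The treated libraries were chosen by label and time only, with no measured value in the rule.

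The labels do not say whether the 3 libraries of a group came from separate cultures or animals, so p-values here measure the spread between these libraries, which may be technical. The 4 h and 24 h sets came with separate sample codes and separate deposited tables. Time of exposure and any culture, harvest or handling difference between the sets therefore cannot be told apart within the treated libraries. The vehicle libraries of the same 2 sets give the change between sets without the compound, and it is given beside the treated result of the gene lists and of many of the genes named. In bulk RNA, fewer cells of a type and less RNA per cell cannot be told apart either.

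Cardiac fibroblasts make and remodel the collagen-rich matrix of the heart, and after injury they can divide, acquire contractile genes and become myofibroblasts. Electrophilic or protein-damaging compounds are known to engage several defences: NRF2, released from its adaptor KEAP1, switches on antioxidant enzymes, heat shock factor 1 switches on cytosolic chaperones, and ATF4 switches on amino acid and stress genes when initiation of translation is restrained. Damaged proteins are cleared by the proteasome and by autophagy.

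The treated libraries held 25016754 to 32367454 gene-assigned counts and the vehicle libraries 26869195 to 34877090. Replicates lay close together, with Pearson's r of log2 CPM (counts scaled to library size) of 0.996 to 0.997 across genes within each treated group, against 0.956 to 0.967 between treated 4 h and treated 24 h and 0.964 to 0.980 between the vehicle groups of the 2 times. The leading principal component held 57.9% of the variance over 12 libraries. On it the treated 24 h libraries lay at 64.82 to 73.04 and the treated 4 h libraries at -5.78 to -2.01. Vehicle libraries lay at -26.37 to -19.5 at 4 h and at -43.85 to -40.3 at 24 h. The next component, with 29.4%, separated the times in both treatments, with 4 h libraries at -37.09 to -19.46 and 24 h libraries at 14.05 to 42.23. Ribosomal RNA genes took 0.949 to 1.1% of counts at 4 h and 2.27 to 3.9% at 24 h in treated cells, with a like step in vehicle cells, from 0.543 to 0.9% to 2.92 to 4.09%; the 10 largest genes took 6.87 to 7.29% and then 9.41 to 10.7% of treated counts. Without ribosomal RNA genes, 10465 genes were called against 10466 with them.

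Most expressed genes differed between the 2 times of treatment. Of 15404 genes tested with edgeR's quasi-likelihood test, 10466 (67.9%) were called at a Benjamini-Hochberg adjusted p under 0.05, with 5163 higher at 24 h (33.5%) and 5303 lower (34.4%). At least 1 log2 unit of change, a large change by the measure used here, was reached by 1471 of the genes that rose and 2016 of those that fell. In 10153 of the 10466 called genes the 3 libraries of one time all lay above the 3 of the other in scaled CPM. Genes without a call were not counted in this way, so the number has no share of all genes beside it. Most genes named below were picked by a rule that required such a lack of overlap, so it is no added support in them. In vehicle cells the same step called 8066 of 15594 genes (51.7%), 4039 higher (25.9%) and 4027 lower (25.8%), and 2303 reached 1 log2 unit. The treated change minus the vehicle change, tested as an interaction over the 12 libraries, was called for 8796 of 16341 genes (53.8%), 4363 more positive in treated cells (26.7%) and 4433 more negative (27.1%). Scaling by library totals alone moved the median treated change from -0.01 to -0.12 on the log2 scale and the interaction's from 0.00 to -0.14, and the higher share of calls from 49.3% to 41.5% and from 49.6% to 40%, respectively. Changes below are relative to the scaling by trimmed mean of M-values (TMM), and the treated change and the interaction share the treated libraries.

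The treated and vehicle changes have no library in common. Among 14890 genes tested in both, 1595 rose in both, which is 32.3% of those that rose in treated cells and 41.7% of those that rose in vehicle cells, and 1990 fell in both, 37.8% and 50% of the respective classes. In opposite directions, 1037 genes rose in treated cells and fell in vehicle cells (21% of the treated rises), and 1105 fell in treated cells and rose in vehicle cells (21% of the treated falls). A further 2307 treated rises and 2170 treated falls had no call in vehicle cells.

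**Figure D1:**
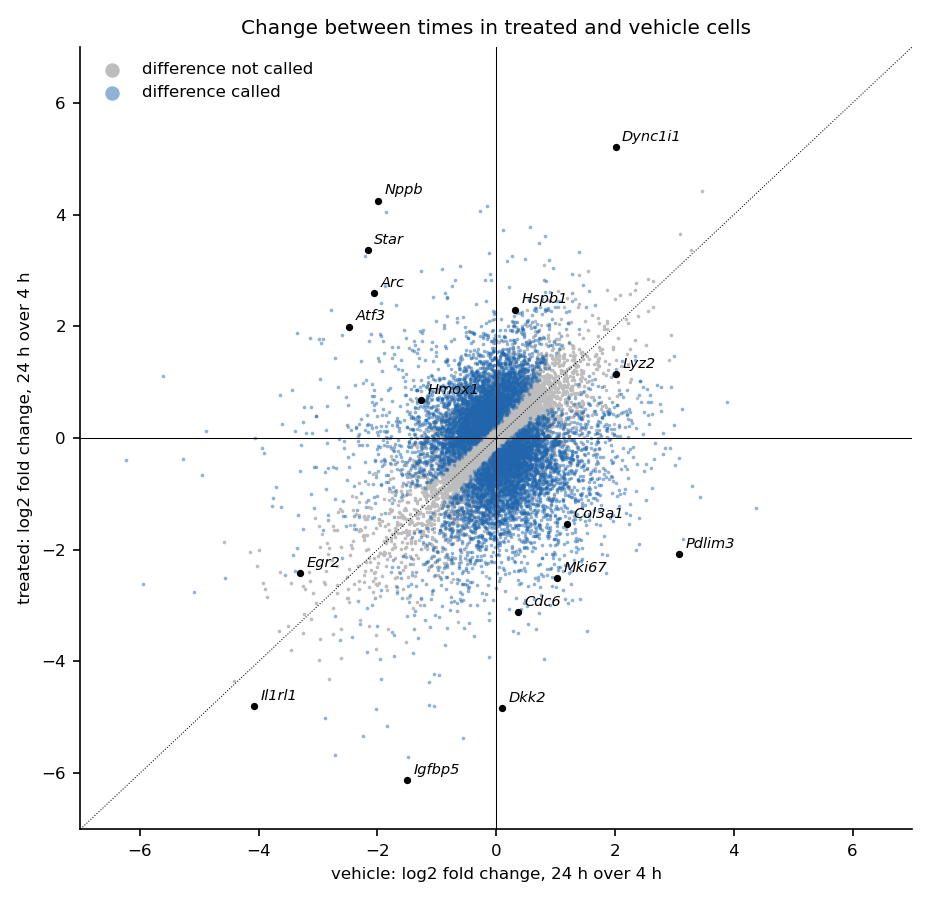
Log2 fold change from 4 h to 24 h in vehicle cells (horizontal) and in treated cells (vertical) for 14890 genes tested in both, with 3 genes beyond the axes; blue points are genes whose treated and vehicle changes differ at adjusted p under 0.05 (edgeR interaction) and the dotted line marks equal change. Star, Nppb, Arc and Atf3 lie high on the left, having risen in treated and fallen in vehicle cells, while Pdlim3 and Col3a1 lie low on the right and Il1rl1 lies near the dotted line.

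Chaperone genes rose together between 4 h and 24 h of treatment. Of 26 heat shock response genes tested, 24 were higher, 1 was lower (Fkbp4) and 1 was not called (Dnajb4), with a median log2 change of 1.42 beside -0.01 over all genes. This count, like those of the lists below, stands against 33.5% of all tested genes higher and 34.4% lower. Their summed share of all counts was 1.54 to 1.62% in the 4 h libraries and 4.35 to 4.57% in the 24 h libraries. In vehicle cells 12 rose and 3 fell (median 0.23), the summed share was 0.796 to 0.816% and then 0.892 to 0.946%, and the interaction was called more positive for 24 and more negative for 1.

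Hspb1, a small heat shock protein that binds unfolding proteins and actin (chr5:135916773-135918417, plus strand, GRCm39), had 330, 385 and 345 CPM at 4 h and 1674, 1621 and 1928 CPM at 24 h. All 3 late libraries were above all 3 early ones, by 2.30 ± 0.08 log2 units (SE, edgeR adjusted p = 3.23e-15), and the vehicle change from 127 ± 24.2 CPM at 4 h to 158 ± 7.09 CPM at 24 h (SD, n = 3) was not called (adjusted p = 0.056). The inducible Hsp70 gene Hspa1b had 1191, 1481 and 1288 CPM at 4 h and 5308, 5367 and 5418 CPM at 24 h, a log2 change of 2.02 ± 0.07 (0.30 in vehicle cells), and its near-identical neighbour Hspa1a rose by 1.57 ± 0.08. Reads of these copies can be divided uncertainly between them. Hspe1, the mitochondrial co-chaperonin of Hsp60, had 141, 111 and 121 CPM at 4 h and 467, 446 and 498 CPM at 24 h (log2 change 1.92 ± 0.08, vehicle 0.27). Fkbp4, an Hsp90 co-chaperone of steroid receptors, went the other way, with 116, 117 and 125 CPM at 4 h and 88.5, 85.4 and 92 CPM at 24 h and no overlap of the groups (adjusted p = 2.78e-06), while it rose by 0.47 in vehicle cells.

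A strict heat shock element, 3 alternating units of TTC and GAA each 2 bases from the next, was searched on both strands in RefSeq promoters of 300 bases around each start site (GRCm38.p6). It was present for 5 of the 20 heat shock genes with a promoter entry, Hspe1, Hsph1, Chordc1, Dnajb6 and Hspd1 (25%), and for 0.662% of 27025 genes in all. The Hspe1 promoter (chr1:55087898-55088197, plus strand) is printed because it holds 2 overlapping matches, in capitals, ahead of a gene that rose.
Hspe1: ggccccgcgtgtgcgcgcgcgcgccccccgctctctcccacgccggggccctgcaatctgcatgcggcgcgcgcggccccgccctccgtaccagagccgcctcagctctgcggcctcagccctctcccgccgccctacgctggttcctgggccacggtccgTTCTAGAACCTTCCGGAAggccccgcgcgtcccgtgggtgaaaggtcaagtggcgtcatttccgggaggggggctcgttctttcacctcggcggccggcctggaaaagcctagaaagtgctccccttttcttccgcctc
The match is a description of these letters and not a mapped binding site. Hspe1 and Hspd1 are transcribed away from each other from neighbouring start sites, so the same element may be counted for both. Heat shock genes also had more promoters searched per gene, 1.35 on average against 1.22 over all genes.

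NRF2 target genes were higher at 24 h for 32 of the 40 tested and lower for 3 (Abcc1, G6pdx, Ugdh), with a median log2 change of 0.80. Gclc, Txnrd1, Tkt, Cbr3 and Ephx1 were not called. The list's summed share of counts was 2.22 to 2.42% in the treated 4 h libraries and 3.81 to 4% at 24 h. In vehicle cells 21 of 39 rose and 11 fell (median 0.24), with summed shares of 1.04 to 1.15% and 0.977 to 1.02%, and the interaction was called more positive for 24 of 40 and more negative for 4.

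Hmox1, the inducible heme oxygenase, had 6645, 6101 and 6504 CPM at 4 h and 10023, 10215 and 10673 CPM at 24 h. The groups did not overlap, and the change of 0.68 ± 0.07 log2 units (edgeR adjusted p = 7.48e-09) stood beside a log2 change of -1.26 in vehicle cells, from 1320 ± 171 CPM at 4 h to 550 ± 9.33 CPM at 24 h (SD, n = 3). Srxn1, which repairs over-oxidised peroxiredoxins, had 1254, 1065 and 1262 CPM at 4 h and 1787, 1869 and 1816 CPM at 24 h (log2 change 0.61 ± 0.07), again without overlap, and fell by 0.23 in vehicle cells. Nqo1, a quinone reductase, had 151, 123 and 151 CPM at 4 h and 193, 212 and 252 CPM at 24 h (log2 change 0.63 ± 0.11), and its treated and vehicle changes did not differ at the threshold (interaction 0.41 ± 0.17, adjusted p = 0.0623). All 7 Gst genes of the list rose in treated cells, by 2.63 in Gsta2, 2.47 in Gsta3, 1.29 in Gsta1, 1.25 in Gsta4, 0.99 in Gstm2, 0.82 in Gstm1 and 0.61 in Gstp1. These are glutathione transferases, which couple glutathione to reactive compounds. Gsta3 had 22.6, 15.3 and 22 CPM at 4 h and 116, 112 and 104 CPM at 24 h, a log2 change of 2.47 ± 0.13 (vehicle 0.55), and Gsta2 reached 2.16, 1.55 and 2.12 CPM from 0.409, 0.213 and 0.304 CPM. Mgst1, a membrane-bound transferase, had 22.9, 19.5 and 21.9 CPM at 4 h and 89, 85.2 and 75.8 CPM at 24 h, and it also rose in vehicle cells, by 1.18.

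Among 11 genes that regulate NRF2, 8 rose, 1 fell (Nfe2l1, a call lost in 5 of 15 alternatives) and 2 were not called (Bach2, Btrc), with a median of 0.39, against 1 rise and 7 falls in vehicle cells (median -0.33). Of the small MAF partners, Mafk and Maff moved most and Mafg rose by 0.18, with Mafk at 171, 205 and 186 CPM at 4 h and 335, 329 and 371 CPM at 24 h and Maff at 130, 145 and 128 CPM at 4 h and 240, 235 and 260 CPM at 24 h. Keap1, the adaptor that targets NRF2 for degradation, had 48, 58.5 and 54.5 CPM at 4 h and 80.6, 77.7 and 79 CPM at 24 h (log2 change 0.56 ± 0.07), and it rose by 0.45 in vehicle cells too. Nfe2l2, which encodes NRF2 itself, had 189, 174 and 173 CPM at 4 h and 195, 199 and 200 CPM at 24 h. Its change of 0.15 ± 0.06 (edgeR adjusted p = 0.0293) lost its call in 9 of 15 alternatives, with 0.04 and an adjusted p of 0.578 when libraries were scaled by their totals.

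An antioxidant response element core, TGACNNNGC on either strand, lay in the promoters of 11 of 32 NRF2 targets with an entry (34.4%), of 14% of all 27025 genes and of 17.1% of the genes tested in treated libraries. The ATF4 list below held the same letters in 9 of 31 promoters (29%). Gsta3 (chr1:21240335-21240634, plus strand, GRCm38.p6), the matched target that rose most, is printed with its match in capitals.
Gsta3: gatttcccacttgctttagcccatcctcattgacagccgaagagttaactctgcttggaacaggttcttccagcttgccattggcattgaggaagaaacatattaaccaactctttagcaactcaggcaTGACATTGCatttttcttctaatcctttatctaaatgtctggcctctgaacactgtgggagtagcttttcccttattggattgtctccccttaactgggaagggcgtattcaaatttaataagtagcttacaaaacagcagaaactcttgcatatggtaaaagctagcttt
The other matched targets ran from Mgst1 and Prdx1, which rose, to G6pdx and Ugdh, which fell, and Txnrd1, which was not called.

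Most ATF4 and integrated stress response genes rose in treated cells, and most fell in vehicle cells. Of 34 tested, 23 rose and 5 fell (Pck2, Pycr1, Atf5, Gpt2 and Shmt2; 8 fell with libraries scaled by totals), with a median of 0.30, whereas 28 of 33 fell and 1 rose in vehicle cells (median -0.65). The interaction was called more positive for 28 and more negative for 2. Atf3, a stress-induced transcription factor, had 79.9, 76.3 and 75.5 CPM at 4 h and 295, 296 and 333 CPM at 24 h, a rise by 2.0 ± 0.07 (edgeR adjusted p = 7.8e-16), and 54.2 ± 4.06 CPM at 4 h and 9.78 ± 0.383 CPM at 24 h (SD, n = 3) in vehicle cells, a log2 change of -2.47. Ddit3, the pro-apoptotic factor CHOP, had 193, 204 and 188 CPM at 4 h and 366, 380 and 453 CPM at 24 h and fell by 1.03 in vehicle cells. Both genes separated the times in treated cells without overlap. Psph, which completes serine synthesis, had 65, 51.2 and 60.7 CPM at 4 h and 142, 143 and 156 CPM at 24 h and fell by 0.65 in vehicle cells. Pck2, the mitochondrial PEP carboxykinase, had 50.6, 55 and 61.8 CPM at 4 h and 27.1, 26.3 and 21.2 CPM at 24 h, with every late library below every early one and no call in vehicle cells (adjusted p = 0.581). Fgf21, a secreted stress hormone, stayed at low levels, with 0.545, 0.71 and 0.574 CPM at 4 h and 1.53, 1.36 and 1.19 CPM at 24 h (53 and 110 counts over the 3 libraries of each time). It had 0 counts in each vehicle 24 h library.

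The C/EBP-ATF response element TGATGCAAT was found on either strand in the promoters of 4 of 31 ATF4-list genes (12.9%), Fgf21, Pycr1, Aars and Nupr1, and in 0.222% of all genes. The Fgf21 promoter (chr7:45615441-45615740, minus strand, GRCm38.p6) holds it on the opposite strand, in capitals. Of the 4 genes, Pycr1 fell and the others rose.
Fgf21: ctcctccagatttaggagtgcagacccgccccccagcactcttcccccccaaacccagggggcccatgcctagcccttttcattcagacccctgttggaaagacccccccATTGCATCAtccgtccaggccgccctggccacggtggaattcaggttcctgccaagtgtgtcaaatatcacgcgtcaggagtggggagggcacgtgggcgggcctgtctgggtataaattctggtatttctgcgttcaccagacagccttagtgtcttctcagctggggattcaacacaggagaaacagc

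Chaperones of the endoplasmic reticulum rose less evenly, with 19 of 27 genes of that list higher and 3 lower (Derl3, Xbp1 and Eif2ak3; 6 with scaling by totals; median 0.50), against 12 and 7 in vehicle cells (median 0.06). Hspa5, the resident Hsp70 of that compartment, had 2019, 1879 and 1855 CPM at 4 h and 6232, 6538 and 7090 CPM at 24 h, a rise by 1.79 ± 0.07, where vehicle cells fell by 0.48. Sdf2l1 rose in treated (0.90) and in vehicle cells (0.72), and its interaction was not called (adjusted p = 0.294). The sensor gene Eif2ak3 and the transcription factor Xbp1 had log2 changes of -0.42 and -0.45, both falls.

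Every proteasome subunit or assembly gene tested was higher at 24 h: 33 of 33 rose, by 0.54 to 2.25 log2 units with a median of 1.51. Their summed share of counts was 0.466 to 0.525% at 4 h and 1.2 to 1.26% at 24 h. Vehicle cells had 18 rises and 1 fall (median 0.28), and all 33 interactions were called more positive. Psmb3, a core-particle beta subunit (chr11:97594225-97604326, plus strand, GRCm39), had 121, 113 and 111 CPM at 4 h and 542, 511 and 586 CPM at 24 h, a change of 2.25 ± 0.07 (edgeR adjusted p = 1.82e-16). Its vehicle mean was 103 ± 14.5 CPM at 4 h and 140 ± 5.46 CPM at 24 h (SD, n = 3). Psmb6 and Psma1 rose by 2.02 and 1.95.

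Autophagy genes showed the same direction for 21 of 26 members, with 1 lower (Ulk2; 4 with scaling by totals) and a median of 0.76, while in vehicle cells 3 rose and 11 fell (median -0.14). Gabarapl1, an ubiquitin-like protein of the autophagosome membrane, had 146, 136 and 140 CPM at 4 h and 477, 471 and 500 CPM at 24 h, a rise by 1.78 ± 0.06 against a vehicle change of -0.72. The cargo receptor Tax1bp1 and the initiation scaffold Rb1cc1 rose by 1.41 and 1.47. Neither was called in vehicle cells (adjusted p = 0.773 and 0.129).

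**Figure D2:**
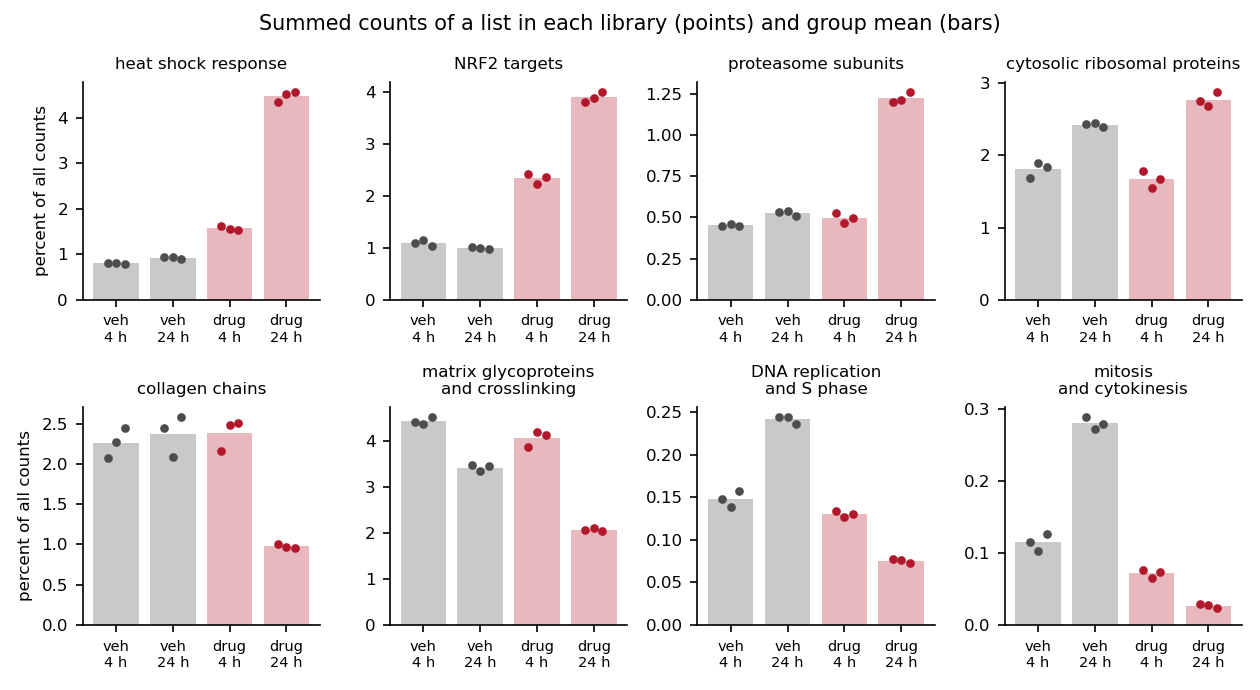
Percent of all counts taken by 8 gene lists in each of the 12 libraries (points) with group means (bars); veh is vehicle and drug is MCB-613-10-1. Heat shock genes reached 4.35 to 4.57% and proteasome genes 1.2 to 1.26% in treated 24 h libraries, where collagen chains fell to 0.953 to 1.01% and mitosis genes to 0.024 to 0.0291%.

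Collagen genes went down as a group. All 21 chains tested fell, with log2 changes from -3.01 to -0.23 (median -1.45), and their summed share dropped from 2.16 to 2.51% of counts to 0.953 to 1.01%. In vehicle cells 5 chains rose and 5 fell (median 0.06), with shares of 2.07 to 2.45% and 2.09 to 2.58%, and the interaction was called more negative for 17 and more positive for none. Col1a1, the main fibrillar chain of scar (chr11:94827050-94843868, plus strand, GRCm39), had 5085, 6455 and 6356 CPM at 4 h and 2137, 1977 and 2077 CPM at 24 h. Its log2 change was -1.53 ± 0.08 (edgeR adjusted p = 8.62e-12), beside 5752 ± 557 CPM at 4 h and 5983 ± 689 CPM at 24 h (SD, n = 3) in vehicle cells, which was not called. Col3a1 had 1162, 1136 and 1445 CPM at 4 h and 530, 422 and 333 CPM at 24 h and rose by 1.19 in vehicle cells. The steepest fall was in Col15a1, a basement membrane zone collagen, with 176, 190 and 216 CPM at 4 h and 29.9, 18.9 and 23.7 CPM at 24 h. Col5a3 had log2 changes of -2.45 in treated and -2.23 in vehicle cells, and its interaction was not called (adjusted p = 0.384).

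Of 40 matrix glycoproteins, proteoglycans and crosslinking enzymes, 33 fell and 4 rose (P4ha1, P4ha2, Plod1, Serpinh1; median -0.82), against 13 and 16 in vehicle cells (median 0.12). The summed share was 3.88 to 4.21% at 4 h and 2.04 to 2.11% at 24 h, and in vehicle cells it was 4.39 to 4.53% and then 3.35 to 3.48%, also lower at 24 h. Vcan, a large matrix proteoglycan, had 214, 208 and 209 CPM at 4 h and 34.4, 37.2 and 36.7 CPM at 24 h, and Fbn1, the microfibril protein fibrillin, had 1066, 1152 and 1201 CPM at 4 h and 272, 259 and 258 CPM at 24 h. Both also fell in vehicle cells, by 0.49 and 0.32. Postn, which encodes periostin and is used to mark activated fibroblasts, had 505, 466 and 490 CPM at 4 h and 265, 268 and 268 CPM at 24 h, with every late library lower (log2 change -0.87 ± 0.06, vehicle -0.43). Among the 4 that rose, the prolyl hydroxylase gene P4ha2 rose by 1.11, P4ha1 by 0.49 and the collagen chaperone gene Serpinh1 by 0.27. These 3 also rose in vehicle cells, by 0.53, 0.47 and 0.73.

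Among 23 metalloproteases and their TIMP inhibitors, 6 rose and 11 fell (median -0.30), where vehicle cells had 13 rises and 5 falls. Mmp19 had 19, 17.4 and 19.5 CPM at 4 h and 75.1, 79.5 and 86.1 CPM at 24 h and Mmp10 had 10, 11.3 and 7.66 CPM at 4 h and 32.2, 26.1 and 30.9 CPM at 24 h, both without overlap. In vehicle cells Mmp19 rose by 0.51 and Mmp10 fell by 1.76. Mmp14, a membrane-bound collagenase, had 389, 385 and 420 CPM at 4 h and 169, 162 and 144 CPM at 24 h and Adam12 had 125, 127 and 134 CPM at 4 h and 40.9, 34.5 and 31.7 CPM at 24 h, both lower in each late library, where vehicle cells rose by 0.42 and 0.19.

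Contractile and TGF-beta response genes fell for 29 of 35 members and rose for 3 (Id2, Id3, Smad7), with a median of -0.78. Vehicle cells had 12 rises and 13 falls (median 0.02), and the interaction was called more negative for 24. The summed share of counts was lower at 24 h with and without the compound, from 2.4 to 2.46% to 1.09 to 1.24% in treated cells and from 2.79 to 2.86% to 1.75 to 1.98% in vehicle cells. Acta2, smooth muscle actin and the classical myofibroblast marker, had 935, 1040 and 993 CPM at 4 h and 570, 611 and 603 CPM at 24 h, a log2 change of -0.73 ± 0.06 (edgeR adjusted p = 1.25e-09), and rose by 0.66 in vehicle cells. Meox1, a homeobox factor of activated fibroblasts, had 15.9, 17.5 and 14.1 CPM at 4 h and 2.05, 1.65 and 1.49 CPM at 24 h, and it fell in vehicle cells by 2.71. Tgfbi, an adhesive matrix protein named for its TGF-beta induction, had 3.95, 5.04 and 5.2 CPM at 4 h and 1.5, 0.475 and 0.722 CPM at 24 h, with a rise by 1.85 in vehicle cells. In these 3 genes each late treated library lay below each early one. Smad7, an inhibitor of TGF-beta signalling, had 240, 284 and 257 CPM at 4 h and 332, 302 and 322 CPM at 24 h. The rise of Id3, 0.42 ± 0.15 with an adjusted p of 0.0419, lost its call in 7 of 15 alternatives.

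**Figure D3:**
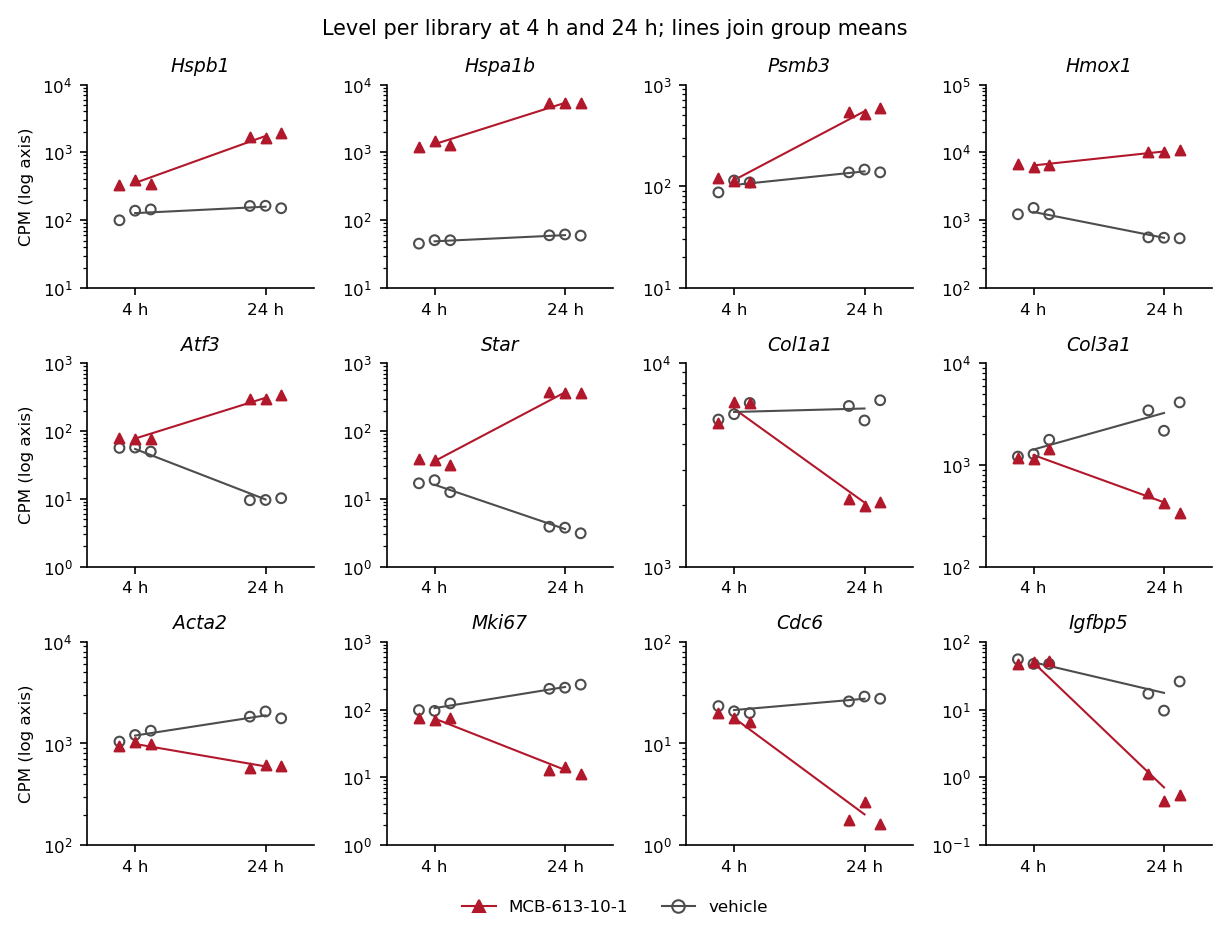
CPM per library on a log axis for 12 genes at 4 h and 24 h, with treated libraries as filled triangles, vehicle libraries as open circles and lines joining group means; treated and vehicle values were each scaled within their own 6 libraries. Hspb1, Hspa1b, Psmb3, Hmox1, Atf3 and Star are higher in every treated 24 h library than in any treated 4 h library, and Col1a1, Col3a1, Acta2, Mki67, Cdc6 and Igfbp5 are lower.

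Proliferation genes moved in opposite directions with and without the compound. Of 30 mitosis and cytokinesis genes, 29 fell in treated cells and 1 was not called (Tpx2), with a median of -1.54, and all 30 rose in vehicle cells (median 1.33), so that all 30 interactions were called more negative (median -2.90). The summed share of counts went from 0.0657 to 0.0767% to 0.024 to 0.0291% in treated cells and from 0.103 to 0.127% to 0.273 to 0.289% in vehicle cells. Mki67, the proliferation marker Ki-67 (chr7:135291513-135318090, minus strand, GRCm39), had 75.9, 70.9 and 73.9 CPM at 4 h and 13, 14.3 and 11.3 CPM at 24 h. Its change was -2.51 ± 0.09 (edgeR adjusted p = 1.45e-15) against 1.03 ± 0.10 in vehicle cells. Top2a, the topoisomerase of dividing cells, had 68.1, 67.3 and 69.3 CPM at 4 h and 14.9, 12.1 and 9.22 CPM at 24 h, and the cyclin gene Ccna2 had 23.1, 16.1 and 19.7 CPM at 4 h and 4.13, 4.12 and 2.72 CPM at 24 h. In both, the late libraries were all below the early ones, and vehicle cells rose by 0.94 and 1.23.

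DNA replication and S phase genes fell for 25 of 30 members, with a median of -0.75 and 1 rise (Mcm2), while 27 rose and none fell in vehicle cells (median 0.64). Cdc6, which loads the replicative helicase, had 19.8, 17.6 and 16.1 CPM at 4 h and 1.77, 2.66 and 1.61 CPM at 24 h. Rrm2, a ribonucleotide reductase subunit, had 75, 72.3 and 72.5 CPM at 4 h and 14, 10.9 and 9.77 CPM at 24 h, and Uhrf1, which guides maintenance DNA methylation, had 53.5, 61.6 and 61.2 CPM at 4 h and 11.3, 10.9 and 10.2 CPM at 24 h. Vehicle cells rose by 0.37 in Cdc6, 0.74 in Rrm2 and 0.75 in Uhrf1. Mcm2, a subunit of that helicase, had 87.1, 92.5 and 96.5 CPM at 4 h and 127, 126 and 140 CPM at 24 h and rose by 0.51 in treated and 0.60 in vehicle cells, with no call for the difference (adjusted p = 0.404).

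The cell cycle genes homology region (CHR) TTTGAA was found on either strand in promoters of 19 of 26 mitosis genes with an entry (73.1%), against 20.2% of all genes and 14.4% of those tested in treated libraries, and in 4 of 24 replication genes (16.7%). The NF-Y box CCAATC was in 14 mitosis promoters (53.8%), against 18.2% of all genes and 23.5% of those tested, and in like shares of the replication list (12 of 24, 50%) and the ATF4 list (17 of 31, 54.8%). In the Mki67 promoter (chr7:135716330-135716629, minus strand, GRCm38.p6), shown for its pair of CHR matches, these are in capitals. The short CHR letters occur in many promoters, and the matches were not tied to binding.
Mki67: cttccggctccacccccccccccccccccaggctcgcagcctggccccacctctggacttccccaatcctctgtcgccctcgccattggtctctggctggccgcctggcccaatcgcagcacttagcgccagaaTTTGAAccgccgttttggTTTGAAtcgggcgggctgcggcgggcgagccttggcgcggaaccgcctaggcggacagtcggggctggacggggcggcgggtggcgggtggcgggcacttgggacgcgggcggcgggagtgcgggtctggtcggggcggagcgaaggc

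Cytokine and chemokine genes fell for 19 of 25 members tested in treated cells, with 1 rise (Ccl8) and a median of -1.71, where 14 of 27 fell and 3 rose in vehicle cells (median -0.49). Il6 had 11.4, 6.57 and 8.07 CPM at 4 h and 2.72, 1.74 and 1.87 CPM at 24 h, a log2 change of -2.04 ± 0.22 (edgeR adjusted p = 2.56e-07) beside -0.49 in vehicle cells. Il11, a fibroblast cytokine tied to fibrosis, had 17.4, 21.2 and 17.5 CPM at 4 h and 2.4, 1.23 and 1.91 CPM at 24 h and fell by 3.50 in vehicle cells as well, with no call for the difference (adjusted p = 0.684). Cxcl10, an interferon-induced chemokine, had 15, 8.09 and 26 CPM at 4 h and 0.905, 0.633 and 1.83 CPM at 24 h, a wide spread at 4 h but no overlap. The rise of Ccl8 lost its call in 5 of 15 alternatives.

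The count of interferon response genes called depended on single libraries. Of 29 tested, 7 fell and 4 rose (Bst2, Oas1a, Ifi27, Psmb8) in treated cells (median -0.73), and 24 rose in vehicle cells with none lower (median 1.53). Ifit1, an antiviral RNA-binding protein, had 41.1, 13.7 and 82.5 CPM at 4 h and 9.09, 4.27 and 4.04 CPM at 24 h, with treated 4 h replicate 2 far below the other early libraries. The number that fell was 20 without treated 4 h replicate 2, 4 without treated 4 h replicate 1, 11 by DESeq2 and 12 in a fit over 12 libraries, and the fall of Ifit1 lost its call in 7 of 15 alternatives. Bst2, the membrane tether tetherin, had 39.5, 29.6 and 45.2 CPM at 4 h and 97.6, 102 and 102 CPM at 24 h and rose by 1.4 in treated and 2.33 in vehicle cells. Summed counts of the list were 0.0339 to 0.0848% of all counts at 4 h and 0.043 to 0.0451% at 24 h in treated cells, and 0.0485 to 0.0759% and then 0.133 to 0.194% in vehicle cells.

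Macrophage and leukocyte markers rose for 8 of 16 members and fell for 2 (Cd74, Cd79a) in treated cells (median 0.48), and 13 of 15 rose in vehicle cells (median 1.99). The 2 falls became 1 without treated 24 h replicate 2, without treated 4 h replicate 3 and by DESeq2, and 0 by limma. Their summed level was 80.6 to 103 CPM and then 173 to 197 CPM in treated cells, against 109 to 121 CPM and then 392 to 464 CPM in vehicle cells, on a scale over all 12 libraries. Lyz2 had 50.2, 33 and 43 CPM at 4 h and 103, 88.3 and 87 CPM at 24 h, and Cd14 had 2.56, 2.91 and 3.98 CPM at 4 h and 10.8, 10.6 and 13.8 CPM at 24 h, with vehicle rises by 2.02 and 0.42. None of the 17 markers with a row was at 0 in all treated libraries, and 1 stayed under 10 counts in each. The part of these cells in the cytokine and interferon changes was not tested.

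Early-response genes were mixed, with 21 of 34 lower, 7 higher and a median of -0.54, and fell for 28 in vehicle cells (median -1.19). The interaction was called more positive for 21 and more negative for 5. Egr2, an early growth response factor, had 76.8, 89.9 and 81.6 CPM at 4 h and 15.9, 15.5 and 15.2 CPM at 24 h and fell more in vehicle cells (-3.30). Dusp1, a phosphatase that inactivates stress kinases, had 52.9, 59.4 and 59.6 CPM at 4 h and 205, 207 and 221 CPM at 24 h, a rise by 1.88 ± 0.07 (edgeR adjusted p = 1.94e-15) beside 0.46 in vehicle cells.

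Clock genes gave 5 rises (Per1, Cry1, Cry2, Nfil3, Rora) and 7 falls among 18, with a median of 0.07 that was -0.04 when libraries were scaled by totals. Both shares lay near those of all genes. Without the compound, 1 of 18 rose and 12 fell (median -0.55), and the interaction was called more positive for 10 and more negative for 3. Dbp, an output gene of the clock, had 8.79, 13.9 and 11.4 CPM at 4 h and 1.61, 2.5 and 1.66 CPM at 24 h and rose by 0.71 in vehicle cells. Nr1d1, the repressor REV-ERB alpha, had 366, 494 and 404 CPM at 4 h and 91.7, 90.5 and 87.7 CPM at 24 h, and had log2 changes of -2.23 in treated and -2.19 in vehicle cells, with no call for the difference (adjusted p = 0.805). Per1, a negative limb component, had 61, 76.9 and 62.9 CPM at 4 h and 118, 108 and 109 CPM at 24 h, with a vehicle change of -0.82.

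p53 targets showed 9 rises and 8 falls among 25 (median -0.09), and 14 falls when libraries were scaled by totals. The first of these counts give shares near those of all genes. Without the compound, 4 of 25 rose and 15 fell (median -0.36), and the interaction was called more positive for 13 and more negative for 5. Gadd45a, a growth arrest gene, had 30.8, 32.7 and 32 CPM at 4 h and 83.1, 72.3 and 86.1 CPM at 24 h, whereas the kinase gene Plk2 had 907, 934 and 880 CPM at 4 h and 483, 514 and 495 CPM at 24 h. Metal response genes gave 3 rises (Mt1, Mt3, Mtf1) and 4 falls (Mt2, Slc30a1, Slc39a10, Tfrc) among 8, against 2 rises and 4 falls among 8 in vehicle cells (median -0.51). Mt1, an abundant metallothionein, had 134, 146 and 135 CPM at 4 h and 479, 423 and 484 CPM at 24 h, a rise by 1.74 ± 0.07, and Tfrc, the transferrin receptor, had 137, 131 and 117 CPM at 4 h and 68.4, 76.9 and 75.3 CPM at 24 h. Vehicle cells had no call for Mt1 (adjusted p = 0.108).

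Steroid receptor coactivator genes and their partners, the family that the parent compound is known to stimulate at the protein level, fell for 9 of 14 members and rose for 2 (Ncoa7, Crebbp), with a median of -0.41, against 8 falls and no rise in vehicle cells (median -0.25). Ncoa1 had 45.6, 48.1 and 46.4 CPM at 4 h and 36.2, 34.7 and 37.5 CPM at 24 h and Ncoa2 had 59.2, 61.5 and 61.1 CPM at 4 h and 45.1, 45.7 and 42.4 CPM at 24 h, log2 changes of -0.37 and -0.45. Ncoa3, which encodes SRC-3, had 65.4, 67.1 and 63.4 CPM at 4 h and 67.9, 69.8 and 69.6 CPM at 24 h, and its change of 0.08 ± 0.06 was not called (edgeR adjusted p = 0.256). With libraries scaled by totals, 0 members rose.

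Ribosomal protein genes rose in both treatments, with 34 of 35 higher and 1 lower (Rpl24) in treated cells (median 0.89) and 29 higher and 1 lower in vehicle cells (median 0.36). The interaction was called more positive for 23 and more negative for none. Rps14 had 313, 229 and 263 CPM at 4 h and 758, 755 and 813 CPM at 24 h. Nuclear genes of oxidative phosphorylation also rose in both, 28 of 35 in treated cells (median 0.46; Ndufb10, Ndufv1 and Sdha fell, and 5 did with scaling by totals) and 27 in vehicle cells (median 0.43), with 5 interactions more positive and 6 more negative. Mitochondrially encoded genes rose for 11 of 12 in treated and 9 in vehicle cells, and 1 interaction was called. The 11 became 6 without treated 4 h replicate 2.

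Of 25 cholesterol synthesis genes, 15 fell and 3 rose (median -0.74), against 4 and 6 in vehicle cells. Msmo1 and Sc5d, which encode enzymes of the late steps, were among those that rose. Glycolysis and hypoxia genes were balanced, with 9 higher and 9 lower of 23 and a median of 0.03 whose sign turned in 8 of 15 alternatives. These shares lie near those of all genes. Without the compound, 12 of 25 rose and 7 fell (median 0.29), with 8 interactions more positive and 9 more negative. Ndrg1, a hypoxia-induced gene, had 59.6, 67.1 and 57.4 CPM at 4 h and 109, 114 and 134 CPM at 24 h and fell by 2.38 in vehicle cells, while Vegfa, the angiogenic growth factor, had 453, 462 and 456 CPM at 4 h and 278, 244 and 261 CPM at 24 h.

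**Figure D4:**
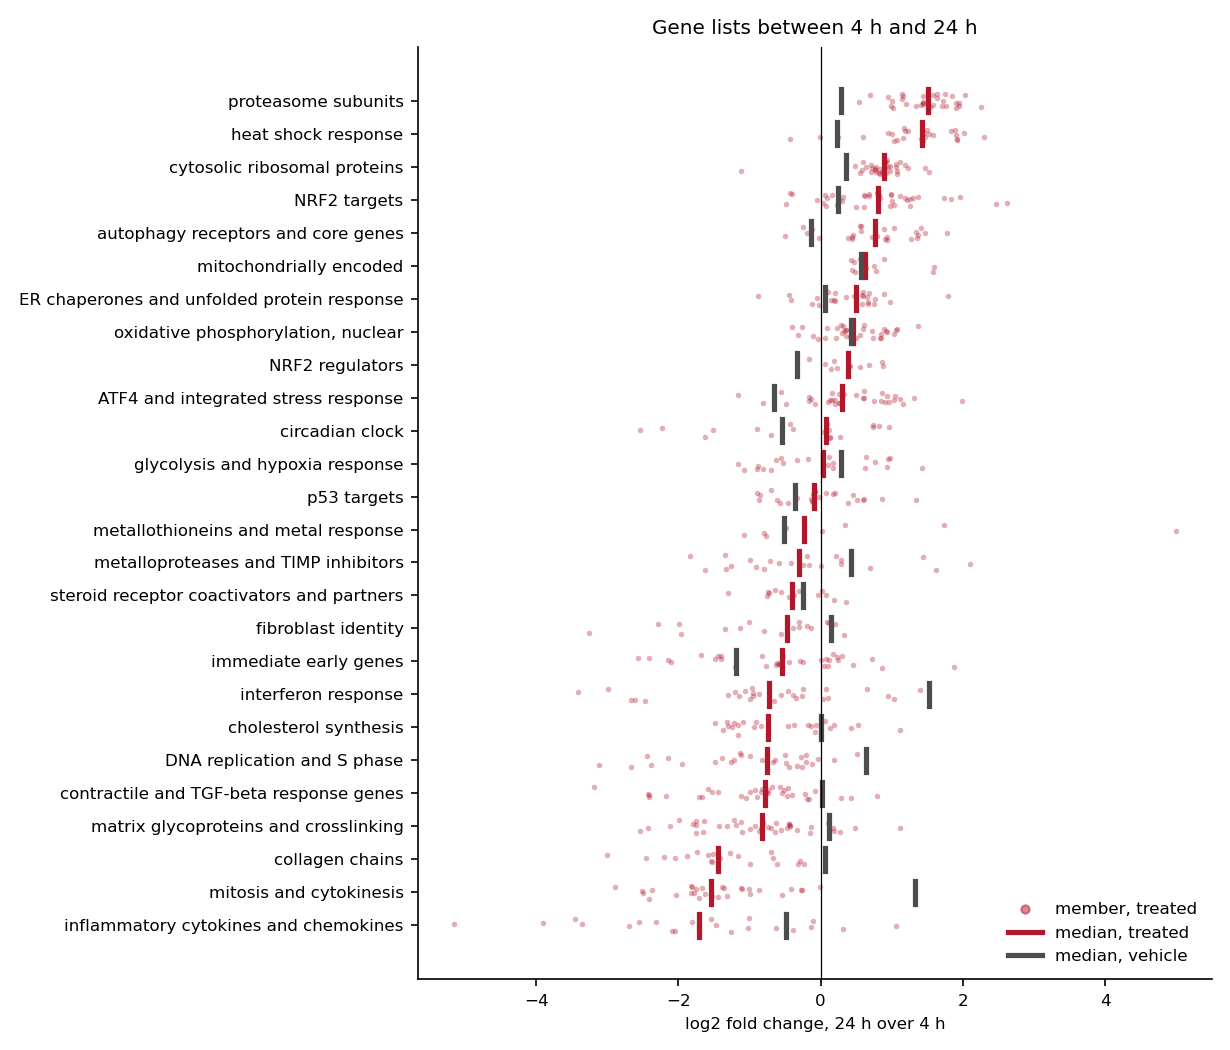
Log2 fold change from 4 h to 24 h for each tested member of 26 gene lists in treated cells (points), with the treated median (red bar) and the vehicle median (grey bar), ordered by the treated median. Proteasome and heat shock lists lie highest (medians 1.51 and 1.42), collagen chains, mitosis and cytokine lists lie lowest (-1.45, -1.54 and -1.71), and for mitosis genes the vehicle median of 1.33 is on the other side of 0.

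The protein-coding genes with the largest falls included secreted regulators of growth factor signalling. Igfbp5, an IGF-binding protein (chr1:72897091-72914043, minus strand, GRCm39), had 46.2, 49.4 and 51.7 CPM at 4 h and 1.14, 0.443 and 0.552 CPM at 24 h, a log2 change of -6.13 ± 0.17 (edgeR adjusted p = 9.42e-15) that rests on 56 counts at 24 h. The BMP antagonist Nog had 8.01, 11.8 and 9.42 CPM at 4 h and 0.157, 0.127 and 0.467 CPM at 24 h, and the Wnt inhibitor Dkk2 had 3.78, 4.3 and 3.98 CPM at 4 h and 0.157, 0.19 and 0.0425 CPM at 24 h with 11 counts left over the late libraries. Vehicle log2 changes were -1.5 in Igfbp5 and -2.25 in Nog, and Dkk2 was not called (adjusted p = 0.651). Il1rl1, the receptor of interleukin 33, had 12.2, 16 and 13.4 CPM at 4 h and 0.354, 0.538 and 0.595 CPM at 24 h, and fell in vehicle cells as well, by 4.07, with no call for the difference (adjusted p = 0.158). The other 6 were Cxcl3, Car2, Col2a1, Egr4, Npy1r and Gdf7, with log2 changes from -5.15 to -3.96.

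The largest rises started from very few counts. Afp, the fetal plasma protein alpha-fetoprotein, had 0.273, 0.107 and 0.203 CPM at 4 h and 10.5, 8.33 and 10.4 CPM at 24 h, from 17 counts in all at 4 h to 777 at 24 h. Dync1i1, a dynein intermediate chain, had 0.545, 0.32 and 0.371 CPM at 4 h and 15.3, 16.1 and 14.9 CPM at 24 h and Mt3, a metallothionein best known from brain, had 0.341, 0.071 and 0.135 CPM at 4 h and 6.18, 6.81 and 4.97 CPM at 24 h. Nppb, the natriuretic peptide gene, had 1.19, 0.888 and 0.945 CPM at 4 h and 22.7, 18.7 and 16.4 CPM at 24 h, a rise by 4.25 ± 0.17 (edgeR adjusted p = 1.46e-14), and fell by 1.99 in vehicle cells. It is 1 of 13 cardiomyocyte markers, of which 7 stayed under 10 counts in every treated library. Of the 6 tested, Nppb and Tnnc1 rose and Tnnt2, Actn2 and Ttn fell in treated cells, and Myh6 and Myh7 had 3 and 2 counts in the early and 0 in the late treated libraries. The summed level of the 13 was 19.5 to 21.7 CPM and then 25.7 to 36.5 CPM in treated cells, and 15.7 to 26 CPM and then 18.1 to 21.8 CPM in vehicle cells. Nppb made up little of the early treated sum and most of the late one, so the treated sum rose through Nppb. The remaining 6 were Prr9, Trim54, Fbxo2, Atp13a4, Rnf183 and Cyp3a13, with log2 changes from 4.92 to 3.90.

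Some genes that rose strongly in treated cells fell in vehicle cells. Star, which carries cholesterol to the inner mitochondrial membrane (chr8:26296583-26306010, plus strand, GRCm39), had 38.8, 37.5 and 31.4 CPM at 4 h and 380, 366 and 367 CPM at 24 h. It rose by 3.37 ± 0.08 (edgeR adjusted p = 1.12e-17) and its vehicle levels were 16.1 ± 3.21 CPM at 4 h and 3.58 ± 0.414 CPM at 24 h (SD, n = 3), an interaction of 5.53 ± 0.18. Arc, an activity-regulated gene studied in neurons, had 14.9, 18.5 and 22.1 CPM at 4 h and 121, 104 and 109 CPM at 24 h, and Ppp1r16b, a regulatory subunit of protein phosphatase 1, had 4.33, 4.76 and 4.39 CPM at 4 h and 19.5, 24.7 and 21.8 CPM at 24 h. Their vehicle changes were -2.06 and -2.79. Pdlim3, an actin-associated LIM protein, had 3.55, 1.63 and 3.65 CPM at 4 h and 0.944, 0.348 and 0.85 CPM at 24 h and rose by 3.08 in vehicle cells. Gas1, a growth arrest gene and hedgehog co-receptor, rose in vehicle cells by 4.37 and had 2.93, 2.59 and 3.48 CPM at 4 h and 2.48, 1.01 and 0.255 CPM at 24 h in treated cells, with late replicate 1 close to the lowest early library, a difference that was not called (adjusted p = 0.121). Without treated 24 h replicate 1 its change was -2.15 with an adjusted p of 0.0001, and without replicate 3 it was -0.81 with 0.0329.

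Markers of fibroblast identity were measured at levels that differed widely in the treated cells at 24 h. Per kilobase of gene length, the treated 24 h means ran from 0.152 CPM for Pi16 to 494 CPM for Vim, with 42.4 for Ddr2, 12.5 for Pdgfrb and 10 for Pdgfra. The leukocyte markers tested ran from 0.105 CPM for Itgam to 70.6 CPM for Lyz2, above Ddr2, with 0.153 for Ptprc. The endothelial markers tested ran from 0.267 CPM for Tie1 to 72.3 CPM for Eng, with 0.699 for Pecam1. Of 18 identity genes, 11 fell and 1 rose (Ddr2) in treated cells (median -0.47), against 3 and 7 in vehicle cells. Pdgfrb, a receptor of mesenchymal cells, had 315, 332 and 356 CPM at 4 h and 79.7, 68.5 and 56.6 CPM at 24 h, and Mgp, an inhibitor of calcification, had 339, 284 and 356 CPM at 4 h and 57.5, 23 and 21.7 CPM at 24 h. Neither was called in vehicle cells (adjusted p = 0.0582 and 0.77). Pericyte and smooth muscle markers fell for 7 of 8 and epicardial markers for 8 of 9, with summed levels of 1062 to 1189 and then 616 to 660 CPM, and 168 to 169 and then 94.1 to 105 CPM. Acta2, described above with the contractile genes, is also a member of the pericyte and smooth muscle list and made up most of its treated sum. In vehicle cells the pericyte and smooth muscle sum was higher at 24 h, from 1084 to 1371 CPM to 1766 to 2031 CPM, although 4 of 8 members fell and 3 rose, and the epicardial sum was 172 to 207 and then 184 to 191 CPM. Endothelial markers gave 1 rise (Cdh5) and 5 falls (Flt1, Kdr, Tie1, Tek, Eng) among 12 and summed to 458 to 531 and then 361 to 370 CPM, against 452 to 466 and then 543 to 555 CPM in vehicle cells. Schwann cell markers summed to 5.45 to 7.12 and then 3.68 to 5.41 CPM, with 1 of 3 lower, and to 6.46 to 7.32 and then 6.08 to 6.96 CPM in vehicle cells. The part of these cells in the collagen and contractile changes was not tested. Xist, transcribed from the inactive X chromosome, had 489, 482 and 422 CPM at 4 h and 510, 458 and 470 CPM at 24 h and was not called (adjusted p = 0.57).

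Gene length and base composition moved with the change. Among protein-coding genes, the median treated log2 change over 4 equal groups from the shortest to the longest genes was 0.12, -0.03, -0.09 and -0.14, and in vehicle cells 0.24, 0.05, -0.05 and -0.17. For the interaction the order was the reverse, with -0.11, -0.06, -0.02 and 0.02. Over 4 equal groups from low to high GC content the treated medians were 0.10, 0.04, -0.08 and -0.26, those in vehicle cells -0.06, -0.01, 0.06 and 0.07, and those of the interaction 0.21, 0.07, -0.13 and -0.31. The lists were set beside genes of their own length: other genes within the middle range of proteasome gene lengths had a median of 0.00 (3510 genes, proteasome 1.51), those of collagen lengths -0.09 (2142 genes, collagens -1.45) and those of ribosomal protein lengths 0.05 (2186 genes, ribosomal proteins 0.89). The part of length or composition in the changes of single genes was not tested.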

How the data were processed

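RNA-seq was deposited for 12 mouse cardiac fibroblast libraries, 3 per group, as 1 table for each time. Raw counts per gene were deposited beside FPKM, which the authors normalized by depth and gene length, per the file headers. Normalized count signal, log2 fold changes and p-values of the authors' own comparisons were also deposited and not used here. HISAT2 2.0.5, featureCounts 1.5.0-p3, DESeq2 and DESeq and the build GRCm39 are named in the submitters' processing notes. Strand settings are not given in the sources used here.

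Here the tables were joined by gene identifier (24230 genes in both, 29030 in either), and a gene listed in 1 table entered the other as 0. Counts were filtered with filterByExpr, scaled by TMM within the 6 libraries of a treatment (CPM) or over 12, and tested with edgeR 4.0.16 (robust quasi-likelihood fit, R 4.3.3), with Benjamini-Hochberg adjustment over all genes tested. On simulated counts the treated test found 90% of genes changed by 1 log2 unit and 97% of those changed by 2, with 12 false calls. The interaction test found 69% and 91%, with 7 false calls. The simulation changed 100 genes by each amount and gave all genes the same variability, whereas 67.9% of genes were called in treated cells. Its rates therefore need not hold for these data, and a difference without a call may be one too small for the test. Alternatives were DESeq2 1.42.0, other scaling and filters, a replicate block, each library left out, and limma 3.58.1 on log2(FPKM + 1).

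The members and the 33 gene lists (758 genes) were chosen with earlier results of these data known. Of the list symbols, 10 matched by an older symbol and 7 stayed unmatched, among them the Y-linked ones. Named genes include the 10 largest rises and 10 largest falls among protein-coding genes, and the 3 largest in each direction in a list. These had to be called in treated cells, with a mean of at least 1 CPM per kilobase and without overlap of the libraries. The 5 largest differences each way and the 5 largest opposite changes were taken among protein-coding genes called in the tests concerned. For these, the minimum mean could be in any group and overlap of the libraries was allowed. A further set was fixed by name. Others, such as members of a group of 5 or fewer, Aars, Chordc1 and Prdx1, were named after their values were seen. Promoters came from RefSeq (GRCm38.p6, 32851 of 300 bases), and their coordinates belong to that build alone. Some genes covered by the naming rule are not reported here.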

Additional observations from a re-analysis of the deposited data

Results flagged for a closer look

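Each result here is a change from 4 h to 24 h that differed between treated and vehicle libraries in edgeR's interaction test, with the treated and vehicle libraries moving in opposite directions for each gene named. At an adjusted p under 0.05 the difference was called for 8796 of 16341 genes. More positive in treated cells, on the log2 scale, were Nppb by 6.23, Atp13a4 by 5.90, Star by 5.53, Ppp1r16b by 5.08, Arc by 4.64 and Atf3 by 4.46. Smaller positive differences were those of Ddit3 (2.06), Hmox1 (1.94), Per1 (1.55) and Srxn1 (0.84). More negative were Pdlim3 at -5.17, Gm4951 at -4.36, Dbp at -3.25, Col3a1 at -2.74 and Acta2 at -1.40.

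The fitted differences of Sprr2g (6.68) and Krtap4-16 (9.86) were of the same kind, and neither is a measured fold. Krtap4-16 had 0 counts in each vehicle 24 h library and 351 over the treated 24 h libraries, and Sprr2g had 1 count over the vehicle 24 h libraries and 115 over the treated ones. The treated change of Gm4951 lost its call in 6 of 15 alternatives, and its treated 24 h libraries held 15, 7 and 1 counts.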

How the results depend on the processing

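The number of genes called between treated 24 h and 4 h was 8719 with limma on FPKM, 9961 with DESeq2 and 10937 without a filter, against 10466, and leaving out 1 library at a time gave 9777 to 10396. The same ranges were 6477 to 8925 for the vehicle comparison and 8114 to 9120 for the interaction. No gene called in both the chosen fit and an alternative changed sign in any of these comparisons. Over 15 alternatives and 183 named genes with a treated test, 2695 of 2743 calls stood, 40 were lost and 8 were gained, all in 12 genes. Most of these genes were named for large called changes in the same libraries, which favours calls that stand. Over all genes called in treated cells, the share kept ran from 79.7% with limma on FPKM to 99.9% without ribosomal RNA genes. Of the counts and medians of gene lists under these alternatives, 1426 moved by less than 1.5 times in count or kept their sign and 58 did not.

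The labels do not say whether replicate numbers pair the libraries. Deviations of same-numbered treated libraries correlated at -0.03, 0.04 and -0.06, and those of vehicle libraries at 0.01, 0.09 and 0.10. Libraries with unlike numbers gave -0.06 to 0.10 in treated and -0.11 to 0.02 in vehicle cells. A replicate block gave 10300 genes for treated cells, 7950 for vehicle cells and 8549 for the interaction.

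With 3 libraries a group, genes under 1 CPM rest on few counts and their fold changes are uncertain. Time cannot be separated from the set of libraries.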
